A study of Mus musculus with 12 samples.

Results

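The mitosis and spindle genes described here are 45 genes of the G2/M transition, the kinetochore, the spindle and cytokinesis. They were taken by name from a list that was drawn up with earlier results of these data known, and no cut-off on their values was used. All 45 of 45 matched an Ensembl identifier among the 41388 in the count tables, and all 45 passed the low-count filter that left 13030 genes for testing. The lowest count of any of them in a library was 181, for Cdc25c. They were measured by RNA-seq in 12 libraries of cultured bone marrow cells from C57BL/6 mice, with 3 libraries in each of 4 groups. KO cells came from mice positive for LysM Cre, a recombinase driven in myeloid cells by the Lyz2 promoter, and flox cells carried the floxed Asxl2 allele without a Cre label. Asxl2 encodes a chromatin protein that partners the deubiquitinase BAP1. After 5 days of expansion in medium with 10% FBS, cells were replated for 2 days in 2% M-CSF and 50 ng/ml RANKL, the osteoclast cultures KO_OC and flox_OC, or in 2% M-CSF alone, the bone marrow macrophage cultures KO_BMM and flox_BMM. Every group thus received M-CSF, and no group had Cre with an intact Asxl2, so the effect of Cre and that of the lost gene cannot be told apart. The deleted exons, and the age and number of the mice, were not stated in the labels. No label ties the libraries to separate animals, so p-values reflect the variation among these 12 libraries, and that variation may be technical.

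Cells enter mitosis when cyclin B with the kinase CDK1, freed of inhibitory phosphate by CDC25 phosphatases, becomes active. Chromosomes are then held by kinetochores on spindle microtubules while the spindle checkpoint restrains CDC20. Once all are attached, the anaphase promoting complex with CDC20 marks securin and cyclin B for destruction, and the central spindle directs cytokinesis. Transcripts of these genes are made mostly in G2 and M, under the MuvB complex with B-MYB and FOXM1, so their level in a culture is widely used as a measure of proliferation. M-CSF drives the division of macrophage precursors, and RANKL turns such precursors into osteoclasts, which are postmitotic and form by fusion. In bulk RNA, more dividing cells and more transcript per dividing cell cannot be told apart.

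The libraries held 18489873 to 21667237 counts. Levels are given as CPM, a gene's counts relative to the TMM-scaled total of its library, and a gene was called where the Benjamini-Hochberg adjusted p of edgeR's quasi-likelihood test over all 13030 genes was under 0.05. Asxl2 itself had 14.9, 14.9 and 15.4 CPM in KO_BMM, against 95.6, 94.0 and 89.7 CPM in flox_BMM, and 15.1, 12.7 and 13.4 CPM in KO_OC, against 75.6, 73.6 and 71.0 CPM in flox_OC (log2 fold change -2.63 in BMM and -2.42 in OC). The 8 macrophage markers summed to 27944 to 28694 CPM in KO_BMM and 31539 to 32575 CPM in flox_BMM. A single marker made up much of that sum, with a highest value of 22397 CPM in a library. The list includes Lyz2, whose promoter drives the Cre. Whether the Cre allele itself changed the Lyz2 level, and with it these sums, was not tested. In KO against flox BMM 2 of the 8 rose and 6 fell, where 19.3% of all genes were called higher and 20.6% lower. Of 10 osteoclast markers, 8 were tested. With RANKL in flox cells 7 of the 8 rose, where 37.0% of all genes were called higher and 37.8% lower. The integrin gene Itgb3 was called lower there, with a log2 fold change of -1.46. In KO against flox OC 7 of 8 fell, where 19.9% of all genes were called lower. The 10 osteoclast markers summed to 379 to 396 CPM in KO_OC and 743 to 765 CPM in flox_OC. The defining markers Calcr and Oscar stayed under the low-count filter in the whole series. The flox_BMM libraries varied most, with a biological coefficient of variation of 4.04% within that group, against 1.85% to 1.99% within the others.

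The 45 genes together took 7119, 7253 and 7141 CPM in KO_BMM, against 4061, 4349.9 and 4589.7 CPM in flox_BMM. They took 8175, 8076 and 8212 CPM in KO_OC, against 6505, 6519 and 6577 CPM in flox_OC. The 4 groups of 3 sums did not overlap, with flox_BMM lowest and KO_OC highest. The mean and SD of the sum were 8155 ± 70.0 in KO_OC, 6534 ± 38.4 in flox_OC, 7171 ± 71.9 in KO_BMM and 4333 ± 265 in flox_BMM (n = 3 each). Within flox_BMM the sum was uneven: library 1 was the lowest of the group for 40 of 45 genes and library 3 the highest for 40 of 45. Per kilobase of exon, the mean level over the 12 libraries was highest for Incenp with 92.9 CPM per kb, Mki67 with 88.2, Ccna2 with 79.8 and Bub3 with 73.5 CPM per kb. It was lowest for Ccnb1 with 7.68, Ttk with 9.18 and Cdc25c with 9.66 CPM per kb. Ccnb1 encodes the main mitotic cyclin and has processed copies in the mouse genome, and reads that align to several places may have been dropped, so its level is uncertain (the annotated copy Ccnb1-ps had 0 counts).

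**Figure D1:**
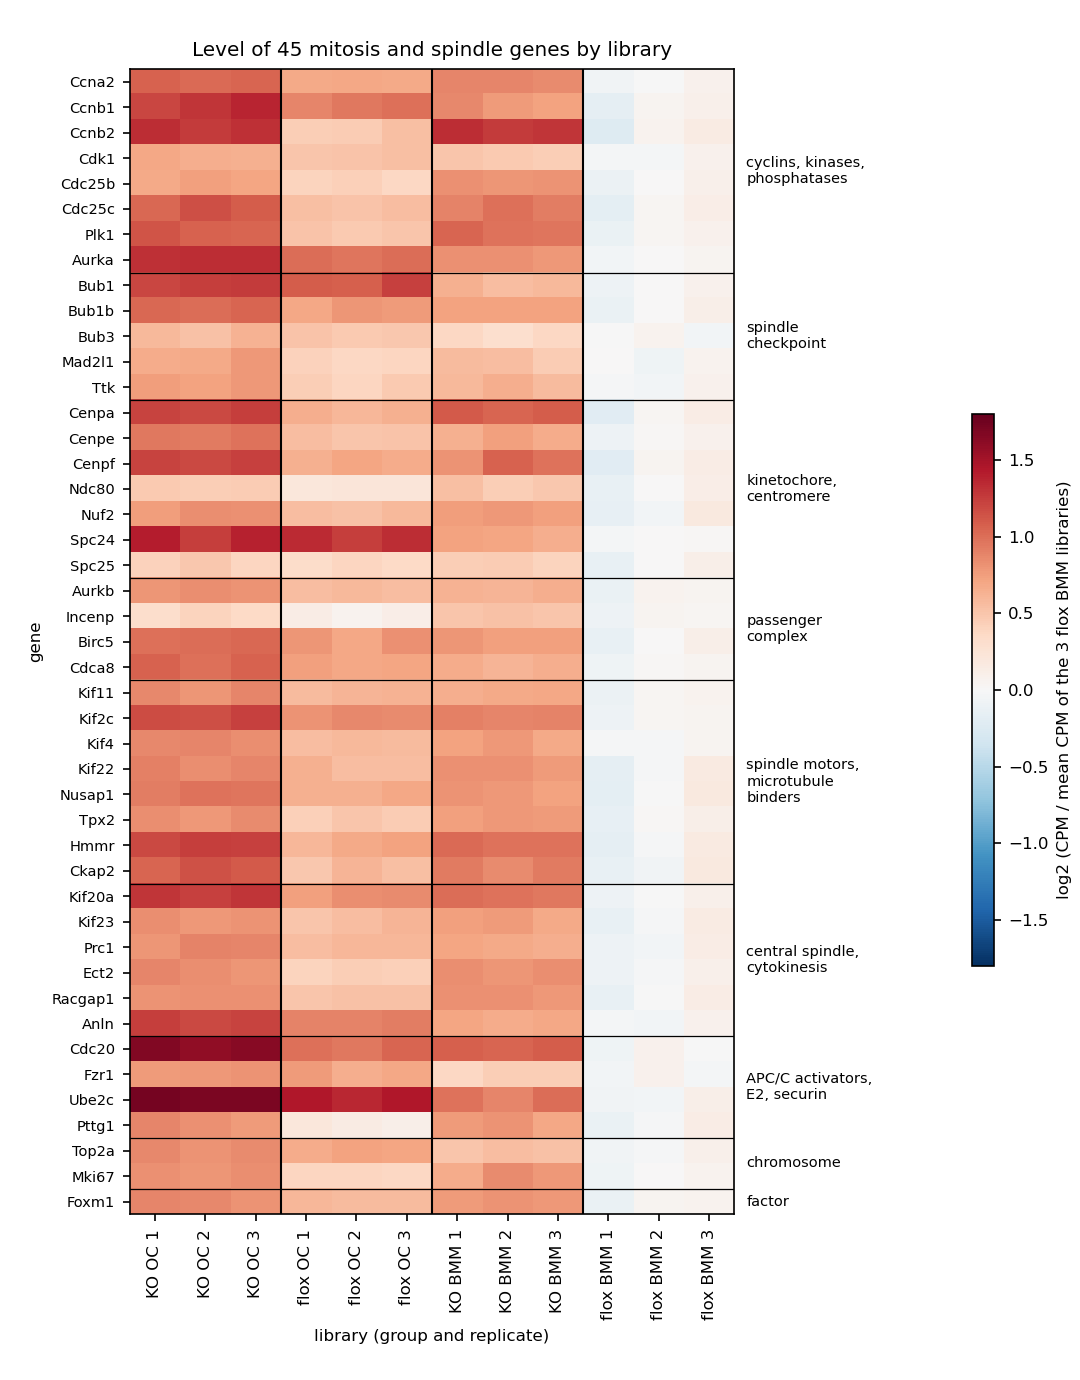
Heat map of the 45 genes (rows, grouped by role) in the 12 libraries (columns: KO_OC, flox_OC, KO_BMM, flox_BMM), coloured by log2 of the CPM over the mean CPM of the 3 flox_BMM libraries. Both KO groups and flox_OC lie above flox_BMM, and within flox_BMM the first library has the lowest value for 40 of 45 genes.

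Because the promoters of many G2/M genes are bound through a pair of short elements, the promoter windows were searched for both and a few are printed here. The elements are the cell cycle homology region, searched as TTTGAA with its reverse complement TTCAAA and the palindromic variant TTCGAA, and the CCAAT box, searched as CCAAT with its reverse complement ATTGG, so that both strands are covered. RefSeq windows on GRCm38.p6, from 250 bases before to 50 after the annotated start, were given for 37 of the 45 genes. No window was used for Ccna2, Cdc25c, Spc24, Aurkb, Incenp, Tpx2, Kif20a and Foxm1. A cell cycle homology match was found for 29 of the 37 genes (78.4%), against 21.7% of all 27025 genes in the table, 16.6% of the 9623 tested genes with a window and 28.2% of 39 G1/S and replication genes. A CCAAT match was found for 29 of 37 (78.4%), against 41.1%, 43.0% and 64.1% of the same sets. Both occurred in 26 of 37 (70.3%), against 8.61%, 6.98% and 20.5%. Within the stretch from 100 bases before to 50 after the start, both occurred in 24 of 37 (64.9%), against 2.53%, 2.26% and 7.69%. Within these windows 1 cell cycle homology match overlapped a CCAAT match, in Cdca8. In Ube2c 2 CCAAT matches on opposite strands overlapped each other. These are counts of letters, with no test, and a match is not a bound site. Mad2l1, Nuf2, Birc5, Nusap1 and Pttg1 held neither motif.

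Shown 5′ to 3′ from 120 bases before to 20 after the start, with CCAAT and cell cycle homology matches in capitals, are Ccnb2 and Cdc20, which had the largest rises of their roles in KO against flox BMM, and Ube2c, which had the largest rise with RANKL. Kif11, a spindle motor, shows a single pair of elements. Bub3, which had the smallest genotype difference in BMM, has the same elements, and Ccnb1 has CCAAT boxes with no cell cycle homology match.
Ccnb2, chr9:70421535-70421674, minus strand: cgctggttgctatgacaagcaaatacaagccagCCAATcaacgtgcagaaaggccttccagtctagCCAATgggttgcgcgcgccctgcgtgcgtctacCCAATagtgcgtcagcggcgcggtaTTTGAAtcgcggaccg
Cdc20, chr4:118437324-118437463, minus strand: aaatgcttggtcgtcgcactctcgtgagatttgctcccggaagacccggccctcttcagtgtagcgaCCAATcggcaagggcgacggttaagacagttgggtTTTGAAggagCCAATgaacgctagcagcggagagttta
Ube2c, chr2:164769809-164769948, plus strand: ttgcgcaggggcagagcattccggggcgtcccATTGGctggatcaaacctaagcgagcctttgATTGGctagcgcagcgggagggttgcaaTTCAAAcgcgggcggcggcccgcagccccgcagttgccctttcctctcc
Kif11, chr19:37376262-37376401, plus strand: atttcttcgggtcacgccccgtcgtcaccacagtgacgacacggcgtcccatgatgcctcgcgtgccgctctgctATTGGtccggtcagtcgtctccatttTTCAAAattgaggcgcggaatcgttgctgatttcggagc
Bub3, chr7:131560250-131560389, plus strand: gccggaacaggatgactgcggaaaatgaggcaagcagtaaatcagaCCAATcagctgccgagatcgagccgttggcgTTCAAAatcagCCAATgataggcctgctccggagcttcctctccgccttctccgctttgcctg
Ccnb1, chr13:100786467-100786606, minus strand: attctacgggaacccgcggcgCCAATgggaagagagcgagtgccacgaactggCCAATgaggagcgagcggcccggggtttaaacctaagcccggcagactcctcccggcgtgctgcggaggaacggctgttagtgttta
Ccnb2 carries 3 evenly spaced CCAAT boxes before a TTTGAA just after the start. Cdc20 has its TTTGAA between 2 CCAAT boxes. Ube2c and Kif11 have the elements on the other strand, read here as ATTGG and TTCAAA.

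**Figure D2:**
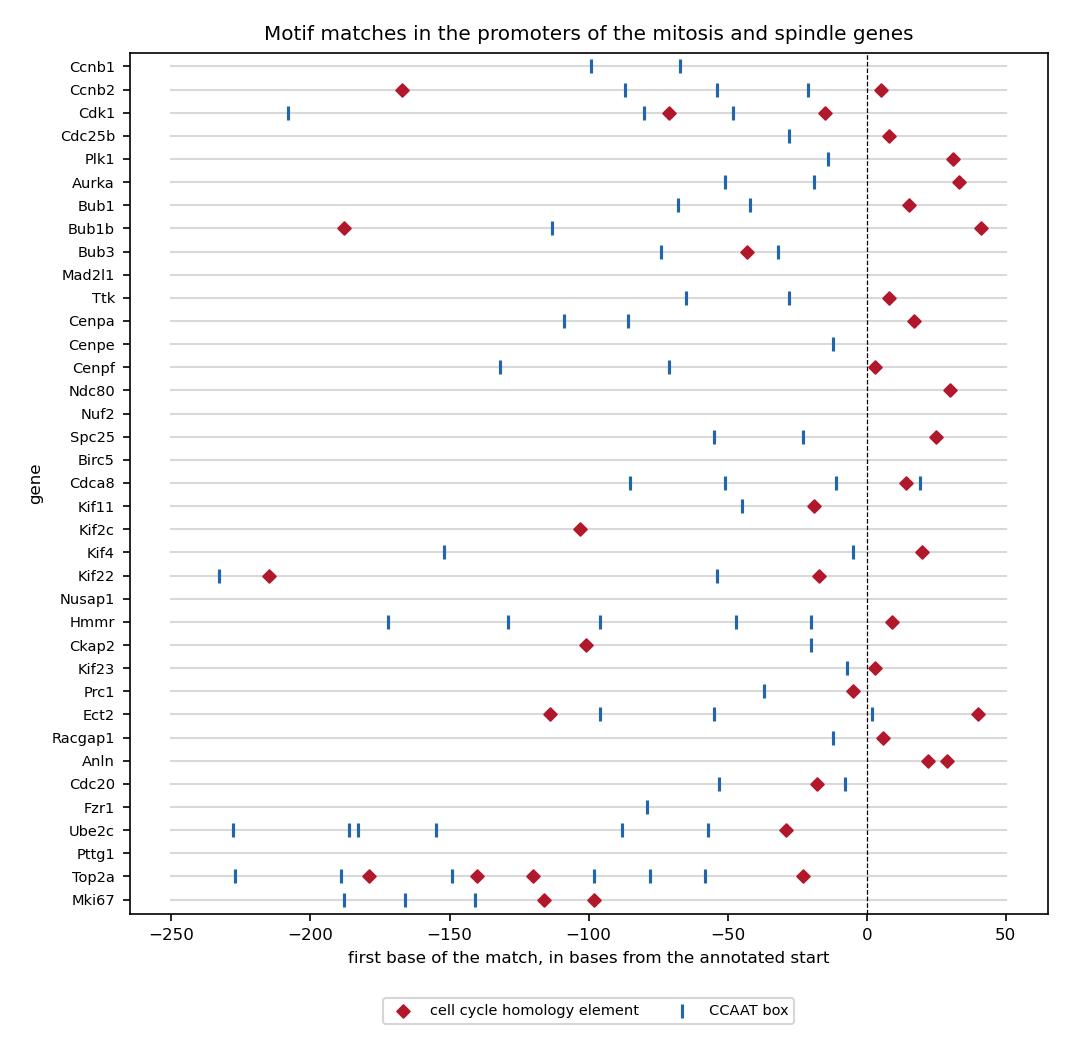
Positions of cell cycle homology matches (red diamonds) and CCAAT matches (blue ticks) in the 37 promoter windows, in bases from the annotated start (x axis; 1 window a gene). Between 100 bases before and 50 after the start, 24 of 37 genes have both, and 5 rows (Mad2l1, Nuf2, Birc5, Nusap1, Pttg1) are empty.

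In macrophage cultures all 45 genes rose in KO against flox cells, by a median log2 fold change of 0.76 and a range of 0.35 (Bub3) to 1.29 (Ccnb2). Of all 13030 genes, 19.3% were called higher in that comparison and the median was 0.00081. Every KO_BMM library lay above every flox_BMM library for 45 of 45 genes, as it did for 23.2% of all genes. The highest edgeR adjusted p among the 45 was 5.69e-06, for Cenpf. In osteoclast cultures 42 of 45 rose, where 21.4% of all genes were called higher. Over all 45 the median in OC was 0.31, with a range of 0.045 (Spc24) to 0.82 (Ccnb2). KO_OC lay above flox_OC without overlap for 42 of 45, against 26.6% of all genes. Spc24, Spc25 and Fzr1 did not pass the test in OC, and Bub1, Spc24 and Spc25 were the 3 whose OC libraries overlapped. Over the 45 genes the 2 genotype differences, which share no library, correlated with Pearson's r = 0.82 and Spearman's rho = 0.78. The 45 points were measured in the same libraries and are not independent.

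**Figure D3:**
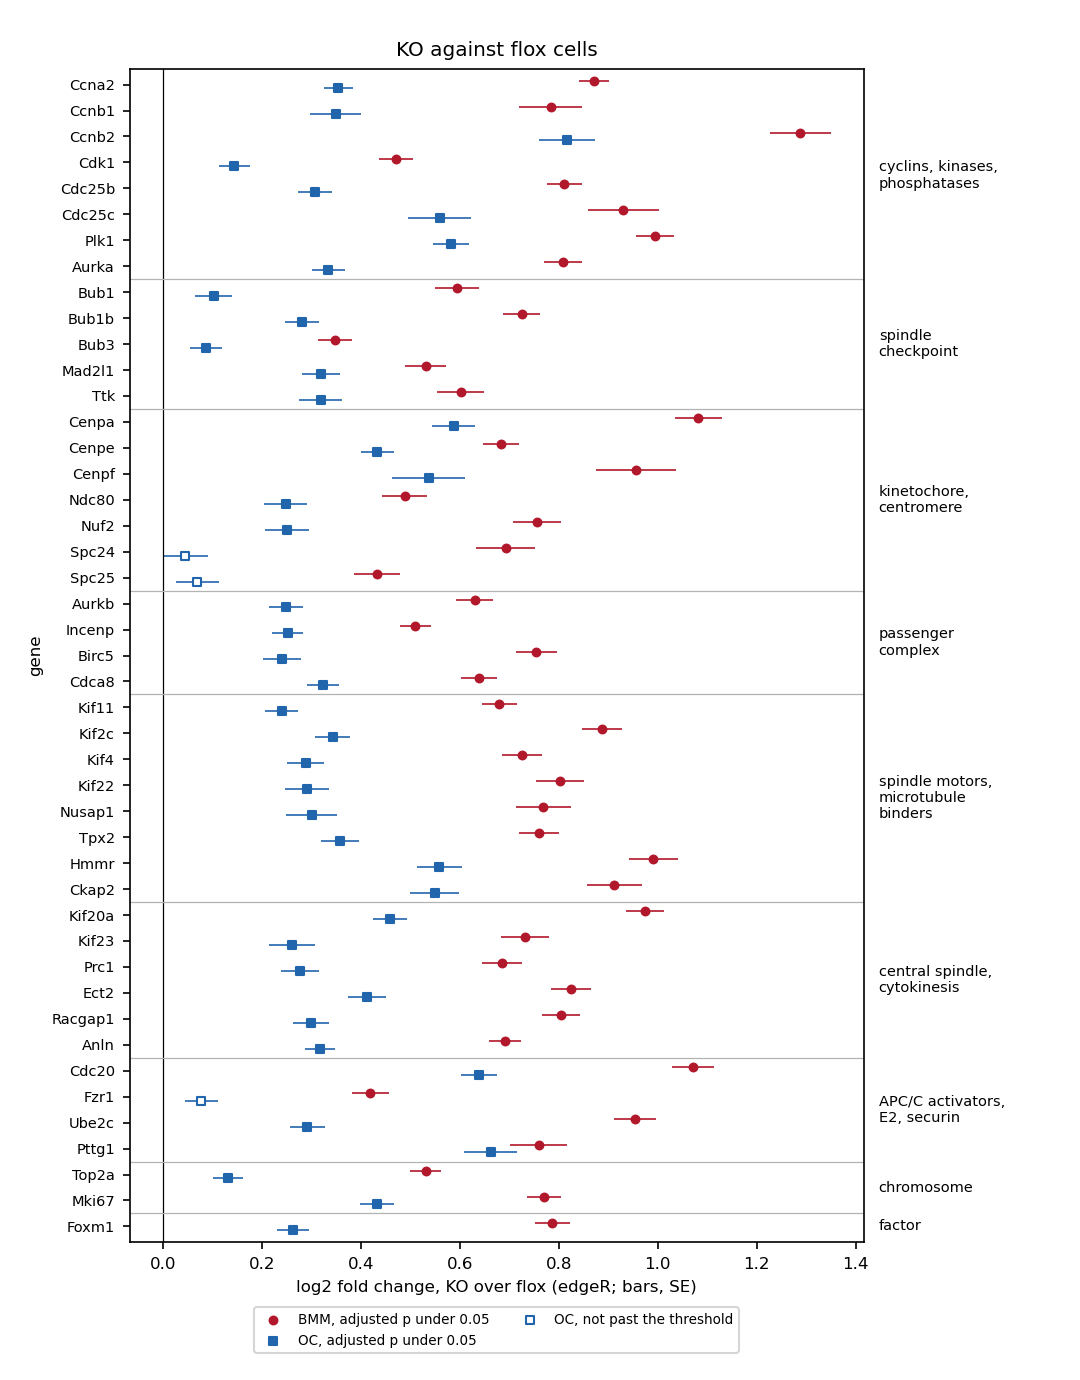
Log2 fold change of KO over flox (x axis, edgeR; bars, SE) for the 45 genes by role, in BMM (red circles) and in OC (blue squares; open where not past the threshold). All 45 BMM points lie above 0 and to the right of the OC point of the same gene, and the open squares are Spc24, Spc25 and Fzr1.

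The mitotic cyclins, kinases and phosphatases (8 genes) rose by a median of 0.84 in BMM and 0.35 in OC on the log2 scale. Ccnb2 (ENSMUSG00000032218, chromosome 9, 70407689 to 70421554, minus strand) encodes cyclin B2, a B-type partner of CDK1. Ccnb2 had 144, 137 and 139 CPM in KO_BMM, against 48.7, 59.7 and 63.3 CPM in flox_BMM (log2 fold change 1.29 with an SE of 0.061 and an adjusted p of 2.17e-11 by edgeR). With RANKL, Ccnb2 had 143, 137 and 142 CPM in KO_OC, against 78.0, 79.0 and 83.3 CPM in flox_OC (log2 fold change 0.82 with an SE of 0.057 and an adjusted p of 4.26e-09 by edgeR). The KO levels with and without RANKL were nearly equal, and both lay above every flox library. Plk1 encodes the polo-like kinase of centrosome maturation and mitotic entry. Plk1 had 169, 159.6 and 159 CPM in KO_BMM, against 74.6, 83.4 and 86.3 CPM in flox_BMM (log2 fold change 0.99, SE 0.039). With RANKL, Plk1 had 179, 169.6 and 168 CPM in KO_OC, against 117, 113 and 116 CPM in flox_OC (log2 fold change 0.58, SE 0.036). Cdc25c encodes a phosphatase that activates CDK1. Cdc25c had 21.3, 22.9 and 21.8 CPM in KO_BMM, against 10.3, 11.8 and 12.6 CPM in flox_BMM (log2 fold change 0.93, SE 0.072). With RANKL, Cdc25c had 23.5, 25.9 and 24.7 CPM in KO_OC, against 16.9, 16.4 and 17.0 CPM in flox_OC (log2 fold change 0.56, SE 0.064). Ccna2, cyclin A2 of S phase and G2, had the highest CPM of this role. Ccna2 had 318, 315 and 312 CPM in KO_BMM, against 165, 171 and 181 CPM in flox_BMM (log2 fold change 0.87, SE 0.030). With RANKL, Ccna2 had 359, 349 and 357 CPM in KO_OC, against 277, 279 and 277 CPM in flox_OC (log2 fold change 0.35, SE 0.029). In each of these comparisons the KO libraries lay above the flox libraries without overlap. Ccna2 shares 14.6% of its exonic bases with the opposite-strand gene Exosc9, and the counting ignored strand. Exosc9 had a log2 fold change of -0.077 in BMM. Of the other 4, Ccnb1, Cdk1, Cdc25b and Aurka, the log2 fold changes in BMM were 0.78 for Ccnb1, 0.47 for Cdk1, 0.81 for Cdc25b and 0.81 for Aurka.

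The 5 spindle checkpoint genes rose by a median of 0.59 in BMM and 0.28 in OC. Bub1b (ENSMUSG00000040084, chromosome 2, 118598211 to 118641591, plus strand) encodes BUBR1, a part of the complex that inhibits CDC20. Bub1b had 165, 165 and 165 CPM in KO_BMM, against 91.6, 100.4 and 107 CPM in flox_BMM (log2 fold change 0.72 with an SE of 0.037 and an adjusted p of 1.88e-20 by edgeR). With RANKL, Bub1b had 205, 201 and 207 CPM in KO_OC, against 162, 172 and 169 CPM in flox_OC (log2 fold change 0.28 with an SE of 0.034 and an adjusted p of 4.41e-09 by edgeR). Ttk encodes the kinase MPS1, which recruits checkpoint proteins to kinetochores. Ttk had 48.6, 51.1 and 48.2 CPM in KO_BMM, against 32.0, 31.3 and 34.3 CPM in flox_BMM (log2 fold change 0.60, SE 0.048). With RANKL, Ttk had 54.8, 53.7 and 55.9 CPM in KO_OC, against 44.3, 42.5 and 45.1 CPM in flox_OC (log2 fold change 0.32, SE 0.044). Bub1 encodes a kinetochore kinase of the same checkpoint. Bub1 had 83.5, 78.8 and 80.1 CPM in KO_BMM, against 50.2, 53.9 and 56.3 CPM in flox_BMM (log2 fold change 0.59, SE 0.044). With RANKL, Bub1 had 123, 126 and 128 CPM in KO_OC, against 114, 112 and 125 CPM in flox_OC (log2 fold change 0.10 with an SE of 0.037 and an adjusted p of 0.0234 by edgeR). In OC the lowest KO value of Bub1 lay below the highest flox value. The OC call of Bub1 was lost without KO_OC library 2 or 3 (adjusted p = 0.0640 and 0.0881), without flox_OC library 1 or 2 (0.120 and 0.183) and with DESeq2 (0.107). Mad2l1 and Bub3, the other checkpoint proteins, had log2 fold changes of 0.53 for Mad2l1 and 0.35 for Bub3 in BMM and 0.32 for Mad2l1 and 0.087 for Bub3 in OC. The OC call of Bub3 was lost without KO_OC library 1 or 3 (adjusted p = 0.0654 and 0.159), without flox_OC library 2 or 3 (0.0956 and 0.0841) and with DESeq2 (0.0987).

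Kinetochore and centromere genes (7) rose by a median of 0.69 in BMM, and 5 of 7 rose in OC. Cenpa (ENSMUSG00000029177, chromosome 5, 30666777 to 30674827, plus strand) encodes the histone H3 variant that marks centromeres. Cenpa had 102, 98.2 and 101 CPM in KO_BMM, against 41.3, 48.6 and 52.2 CPM in flox_BMM (log2 fold change 1.08 with an SE of 0.048 and an adjusted p of 2.84e-20 by edgeR). With RANKL, Cenpa had 110.3, 108 and 113 CPM in KO_OC, against 74.5, 71.7 and 74.0 CPM in flox_OC (log2 fold change 0.59 with an SE of 0.043 and an adjusted p of 6.90e-14 by edgeR). Cenpf encodes a large kinetochore protein made in G2. Cenpf had 131, 156 and 147 CPM in KO_BMM, against 64.9, 76.8 and 81.8 CPM in flox_BMM (log2 fold change 0.96, SE 0.081). With RANKL, Cenpf had 173, 169.8 and 174 CPM in KO_OC, against 116, 122 and 119 CPM in flox_OC (log2 fold change 0.54, SE 0.074). Its 3 KO_BMM values were spread more widely than those of Cenpa. Nuf2 encodes a subunit of the NDC80 complex, which binds microtubules. Nuf2 had 81.2, 82.1 and 79.8 CPM in KO_BMM, against 43.5, 46.3 and 54.2 CPM in flox_BMM (log2 fold change 0.76, SE 0.049). With RANKL, Nuf2 had 81.1, 85.5 and 85.1 CPM in KO_OC, against 70.7, 69.1 and 71.9 CPM in flox_OC (log2 fold change 0.25, SE 0.045). Cenpe encodes a kinesin that moves chromosomes to the spindle equator. Cenpe had 156, 166 and 159 CPM in KO_BMM, against 93.4, 101 and 105 CPM in flox_BMM (log2 fold change 0.68, SE 0.036). With RANKL, Cenpe had 192, 192 and 196 CPM in KO_OC, against 147, 140.4 and 142 CPM in flox_OC (log2 fold change 0.43, SE 0.033). KO and flox libraries did not overlap for these 4 genes. The remaining subunits of the NDC80 complex were chosen for mention after their values were seen. Ndc80 rose in both comparisons (log2 fold change 0.49 in BMM and 0.25 in OC). Spc24 had 51.4, 45.8 and 50.5 CPM in KO_OC, against 48.8, 45.9 and 48.3 CPM in flox_OC (log2 fold change 0.045 with an SE of 0.045 and an adjusted p of 0.464 by edgeR). Spc25 had 59.7, 62.7 and 58.4 CPM in KO_OC, against 56.6, 58.6 and 57.2 CPM in flox_OC (log2 fold change 0.069 with an SE of 0.044 and an adjusted p of 0.215 by edgeR). The 2 genes had overlapping groups in OC, while both rose in BMM, by 0.69 for Spc24 and 0.43 for Spc25.

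The chromosomal passenger complex, which corrects wrong kinetochore attachments, is formed by Aurkb, Incenp, Birc5 and Cdca8. All 4 rose in both comparisons, by medians of 0.63 in BMM and 0.25 in OC. Birc5 (ENSMUSG00000017716, chromosome 11, 117849251 to 117855743, plus strand) encodes survivin. Birc5 had 122, 118 and 117 CPM in KO_BMM, against 64.3, 70.8 and 76.1 CPM in flox_BMM (log2 fold change 0.75 with an SE of 0.042 and an adjusted p of 3.73e-18 by edgeR). With RANKL, Birc5 had 139.8, 141 and 144 CPM in KO_OC, against 122, 114 and 125 CPM in flox_OC (log2 fold change 0.24 with an SE of 0.038 and an adjusted p of 1.95e-06 by edgeR). Cdca8 encodes borealin. Cdca8 had 125, 121 and 124 CPM in KO_BMM, against 75.0, 80.6 and 82.0 CPM in flox_BMM (log2 fold change 0.64, SE 0.036). With RANKL, Cdca8 had 166, 157 and 166 CPM in KO_OC, against 132, 129 and 130.0 CPM in flox_OC (log2 fold change 0.32, SE 0.033). Aurkb encodes the kinase of the complex. Aurkb had 122, 121 and 124 CPM in KO_BMM, against 72.5, 82.7 and 81.6 CPM in flox_BMM (log2 fold change 0.63, SE 0.038). With RANKL, Aurkb had 137, 141 and 138 CPM in KO_OC, against 116, 118 and 117 CPM in flox_OC (log2 fold change 0.25, SE 0.035). Incenp encodes its scaffold and had the highest CPM of the 4. Incenp had 355, 360.5 and 353 CPM in KO_BMM, against 234, 259.7 and 256 CPM in flox_BMM (log2 fold change 0.51, SE 0.031). With RANKL, Incenp had 312, 329.8 and 319.5 CPM in KO_OC, against 274, 262 and 272 CPM in flox_OC (log2 fold change 0.25, SE 0.031). KO libraries lay above flox libraries in all 8 of these comparisons.

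Among 8 spindle motors and microtubule binders the median was 0.79 in BMM and 0.32 in OC, and all 8 rose in both. Hmmr (ENSMUSG00000020330, chromosome 11, 40701395 to 40733422, minus strand) encodes a spindle pole protein that is also known as a hyaluronan receptor. Hmmr had 125, 120.5 and 121 CPM in KO_BMM, against 55.2, 60.5 and 68.7 CPM in flox_BMM (log2 fold change 0.99 with an SE of 0.050 and an adjusted p of 7.18e-15 by edgeR). With RANKL, Hmmr had 141, 146 and 145 CPM in KO_OC, against 92.7, 98.5 and 102 CPM in flox_OC (log2 fold change 0.56 with an SE of 0.045 and an adjusted p of 1.19e-10 by edgeR). Ckap2 encodes a microtubule-associated protein of the spindle. Ckap2 had 54.3, 51.4 and 54.5 CPM in KO_BMM, against 26.0, 27.0 and 32.1 CPM in flox_BMM (log2 fold change 0.91, SE 0.055). With RANKL, Ckap2 had 58.4, 62.7 and 60.9 CPM in KO_OC, against 39.9, 43.3 and 41.4 CPM in flox_OC (log2 fold change 0.55, SE 0.049). Kif2c encodes the microtubule depolymerase MCAK. Kif2c had 90.5, 88.7 and 89.6 CPM in KO_BMM, against 45.4, 49.7 and 50.1 CPM in flox_BMM (log2 fold change 0.89, SE 0.041). With RANKL, Kif2c had 109, 108 and 113 CPM in KO_OC, against 84.9, 88.5 and 87.5 CPM in flox_OC (log2 fold change 0.34, SE 0.036). Tpx2, an activator of Aurora A on the spindle, had the highest CPM of the 8. Tpx2 had 212, 219 and 216 CPM in KO_BMM, against 115, 129 and 137 CPM in flox_BMM (log2 fold change 0.76, SE 0.040). With RANKL, Tpx2 had 227, 218 and 229 CPM in KO_OC, against 172, 179 and 175 CPM in flox_OC (log2 fold change 0.36, SE 0.039). The KO libraries were above the flox libraries each time. The motors Kif11, Kif4 and Kif22 and the microtubule bundler Nusap1 had log2 fold changes of 0.68 for Kif11, 0.73 for Kif4, 0.80 for Kif22 and 0.77 for Nusap1 in BMM. Kif4 shares 15.1% of its exonic bases with the opposite-strand gene Pdzd11, which had 7688 counts in the series.

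Central spindle and cytokinesis genes (6) all rose in both comparisons, by medians of 0.77 in BMM and 0.31 in OC. Kif20a encodes the kinesin MKLP2, which brings Aurora B to the central spindle. Kif20a had 143, 141 and 138 CPM in KO_BMM, against 67.4, 71.0 and 76.2 CPM in flox_BMM (log2 fold change 0.97 with an SE of 0.038 and an adjusted p of 4.22e-26 by edgeR). With RANKL, Kif20a had 174, 169 and 175 CPM in KO_OC, against 119.7, 128 and 129 CPM in flox_OC (log2 fold change 0.46 with an SE of 0.035 and an adjusted p of 9.76e-16 by edgeR). It shares 33.2% of its exonic bases with the opposite-strand gene Cdc23, whose own log2 fold change in BMM was 0.30. Ect2 (ENSMUSG00000027699, chromosome 3, 27097222 to 27153878, minus strand) encodes the exchange factor that activates RhoA at the division plane. Ect2 had 97.8, 95.6 and 98.5 CPM in KO_BMM, against 51.7, 54.3 and 58.7 CPM in flox_BMM (log2 fold change 0.83, SE 0.041). With RANKL, Ect2 had 101, 98.3 and 95.1 CPM in KO_OC, against 72.7, 74.8 and 74.1 CPM in flox_OC (log2 fold change 0.41, SE 0.038). Racgap1 encodes a centralspindlin subunit that recruits ECT2. Racgap1 had 228, 227 and 221 CPM in KO_BMM, against 118, 128 and 141 CPM in flox_BMM (log2 fold change 0.80, SE 0.038). With RANKL, Racgap1 had 227, 227 and 228 CPM in KO_OC, against 183, 186 and 185 CPM in flox_OC (log2 fold change 0.30, SE 0.036). Anln encodes anillin, a scaffold of the contractile ring, and had the highest CPM of the 6. Anln had 218, 210.2 and 215 CPM in KO_BMM, against 129, 129 and 141 CPM in flox_BMM (log2 fold change 0.69, SE 0.032). With RANKL, Anln had 316, 302 and 308 CPM in KO_OC, against 247, 246 and 251 CPM in flox_OC (log2 fold change 0.32, SE 0.030). No KO and flox libraries overlapped for these 4 genes. Kif23, the motor of centralspindlin, and Prc1, which bundles antiparallel microtubules, had log2 fold changes of 0.73 for Kif23 and 0.68 for Prc1 in BMM and 0.26 for Kif23 and 0.28 for Prc1 in OC.

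The activators, the E2 enzyme and the substrate of the anaphase promoting complex had the highest median of the roles with several genes, 0.86 in BMM and 0.47 in OC. Cdc20 (ENSMUSG00000006398, chromosome 4, 118432901 to 118437352, minus strand) encodes the mitotic activator that the checkpoint restrains. Cdc20 had 86.9, 85.3 and 88.0 CPM in KO_BMM, against 39.1, 43.5 and 41.1 CPM in flox_BMM (log2 fold change 1.07 with an SE of 0.042 and an adjusted p of 4.67e-26 by edgeR). With RANKL, Cdc20 had 131, 125 and 129 CPM in KO_OC, against 82.3, 79.7 and 84.9 CPM in flox_OC (log2 fold change 0.64 with an SE of 0.036 and an adjusted p of 2.32e-20 by edgeR). The 3 KO_OC values were the highest of Cdc20 in the series and the 3 flox_BMM values the lowest. Ube2c encodes the E2 ubiquitin-conjugating enzyme of the complex. Ube2c had 113, 105 and 116 CPM in KO_BMM, against 54.8, 55.6 and 62.1 CPM in flox_BMM (log2 fold change 0.95, SE 0.042). With RANKL, Ube2c had 189, 187 and 187 CPM in KO_OC, against 156, 148 and 156 CPM in flox_OC (log2 fold change 0.29, SE 0.035). It shares 22.8% of its exonic bases with Tnnc2, which had no counts in any library. Pttg1 encodes securin, whose destruction frees separase. Pttg1 had 39.3, 40.1 and 37.4 CPM in KO_BMM, against 21.3, 22.6 and 25.2 CPM in flox_BMM (log2 fold change 0.76, SE 0.057). With RANKL, Pttg1 had 42.3, 40.5 and 39.0 CPM in KO_OC, against 26.6, 25.5 and 24.7 CPM in flox_OC (log2 fold change 0.66, SE 0.054). All flox libraries of Pttg1 lay below all KO libraries. Fzr1 encodes CDH1, the activator of late mitosis and G1, which acts after the others. It had 149.7, 150.2 and 154 CPM in KO_OC, against 149.5, 139 and 142 CPM in flox_OC (log2 fold change 0.077 with an SE of 0.034 and an adjusted p of 0.0616 by edgeR), and a log2 fold change of 0.42 in BMM. Fzr1 passed the test in OC without flox_OC library 1 (adjusted p = 0.0198), with no low-count filter (0.0463) and in a fit of only the groups compared (0.0356).

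Of the chromosome genes, Mki67 encodes Ki-67, the coat of mitotic chromosomes used as a proliferation marker, and Top2a encodes topoisomerase II alpha, which untangles sister DNA. Mki67 had 984, 1111 and 1059.8 CPM in KO_BMM, against 586, 618 and 646 CPM in flox_BMM (log2 fold change 0.77 with an SE of 0.035 and an adjusted p of 1.52e-16 by edgeR). With RANKL, Mki67 had 1086, 1067 and 1097 CPM in KO_OC, against 809, 804 and 795 CPM in flox_OC (log2 fold change 0.43 with an SE of 0.035 and an adjusted p of 3.65e-11 by edgeR). Top2a had 594, 619 and 604 CPM in KO_BMM, against 400.0, 412 and 446 CPM in flox_BMM (log2 fold change 0.53, SE 0.031). Top2a had the smaller fold change of the pair in both cultures. With RANKL, Top2a had 761, 731 and 754 CPM in KO_OC, against 667, 696 and 689 CPM in flox_OC (log2 fold change 0.13, SE 0.030). Foxm1 (ENSMUSG00000001517, chromosome 6, 128362967 to 128375893, plus strand) encodes a transcription factor of the G2/M programme. Foxm1 had 201, 208 and 204 CPM in KO_BMM, against 109, 123 and 123 CPM in flox_BMM (log2 fold change 0.79 with an SE of 0.035 and an adjusted p of 5.41e-24 by edgeR). With RANKL, Foxm1 had 217, 215 and 206 CPM in KO_OC, against 179, 176 and 176 CPM in flox_OC (log2 fold change 0.26 with an SE of 0.033 and an adjusted p of 4.86e-09 by edgeR). The 3 genes had no overlap between KO and flox in either culture.

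In KO cells 31 of 45 genes rose with RANKL, 2 fell and 12 did not pass the test. The median for KO_OC over KO_BMM was 0.18, where 35.5% of all genes were called higher and 35.0% lower, or 70.5% in either direction. KO_OC lay wholly above KO_BMM for 32 genes, against 36.9% of all genes, and wholly below it for 2, against 36.5%. The largest rises were 0.75 for Ube2c, 0.66 for Spc24, 0.64 for Bub1, 0.56 for Cdc20 and 0.52 for Anln, of which Spc24 was chosen for mention after its values were seen. Ube2c had 188 ± 1.30 CPM in KO_OC and 111 ± 5.54 CPM in KO_BMM (SD, n = 3 each). Cdc25b, a phosphatase that starts CDK1 activation in G2, had 155, 160.3 and 157 CPM in KO_OC, against 171, 167 and 169 CPM in KO_BMM (log2 fold change -0.10 with an SE of 0.033 and an adjusted p of 0.00649 by edgeR). Incenp fell by 0.15 on the log2 scale (SE 0.031, edgeR adjusted p = 2.58e-05). Both falls depended on the scaling: with library size alone the value was 0.034 for Cdc25b and -0.016 for Incenp. That scaling moved the median of all genes by 0.14 in KO cells and by 0.16 in flox cells, and it called 43 of 45 genes higher and 0 lower in KO cells, with a median of 0.32. The 12 without a call were Ccnb2, Ndc80, Nuf2, Spc25, Kif22, Tpx2, Kif23, Ect2, Racgap1, Pttg1, Mki67 and Foxm1, with log2 fold changes of -0.029 (Ndc80) to 0.081 (Kif23). With library size alone Ndc80 and Spc25 turned to 0.11 and 0.13. The rise of Plk1 in KO cells (log2 fold change 0.086) was lost without KO_OC library 1 (adjusted p = 0.240), KO_BMM library 2 or 3 (0.132 and 0.156) or flox_BMM library 2 (0.0530), with DESeq2 (0.102) and with no low-count filter (0.0737). That of Cdc25c (0.17) was lost without KO_OC library 2 (0.102) or KO_BMM library 1 or 3 (0.0633 and 0.0523) and with DESeq2 (0.0930). Kif23 passed the test without flox_BMM library 1 or 3 (0.0423 and 0.0395), and Mki67 without KO_BMM library 2 (0.0367). In the fit of only the groups compared Kif23 (0.00499), Kif22 (0.0303), Tpx2 (0.0212) and Foxm1 (0.0246) passed it too.

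In flox cells all 45 genes rose with RANKL, by a median log2 fold change of 0.58 for flox_OC over flox_BMM and a range of 0.11 (Incenp) to 1.42 (Ube2c). Of all genes 37.0% were called higher in that comparison, 37.8% lower and 74.8% in either direction. The groups did not overlap for 44 of 45 genes, as for 37.3% of all genes, with Pttg1 the exception, and no gene of the 45 lay wholly below, against 37.9% of all genes. The largest rises were 1.42 for Ube2c, 1.30 for Spc24, 1.13 for Bub1, 1.00 for Cdc20 and 0.99 for Aurka, of which Aurka was also chosen for mention after its values were seen. Ube2c had 153 ± 4.78 CPM in flox_OC and 57.5 ± 3.98 CPM in flox_BMM (SD, n = 3 each), with an edgeR adjusted p of 5.12e-32. Pttg1 had the weakest call (log2 fold change 0.16, SE 0.061, edgeR adjusted p = 0.0191). Leaving out flox_BMM library 1, flox_BMM library 2 or flox_OC library 1 ended it, with adjusted p 0.120, 0.0663 and 0.104, as did DESeq2 (0.0590).

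**Figure D4:**
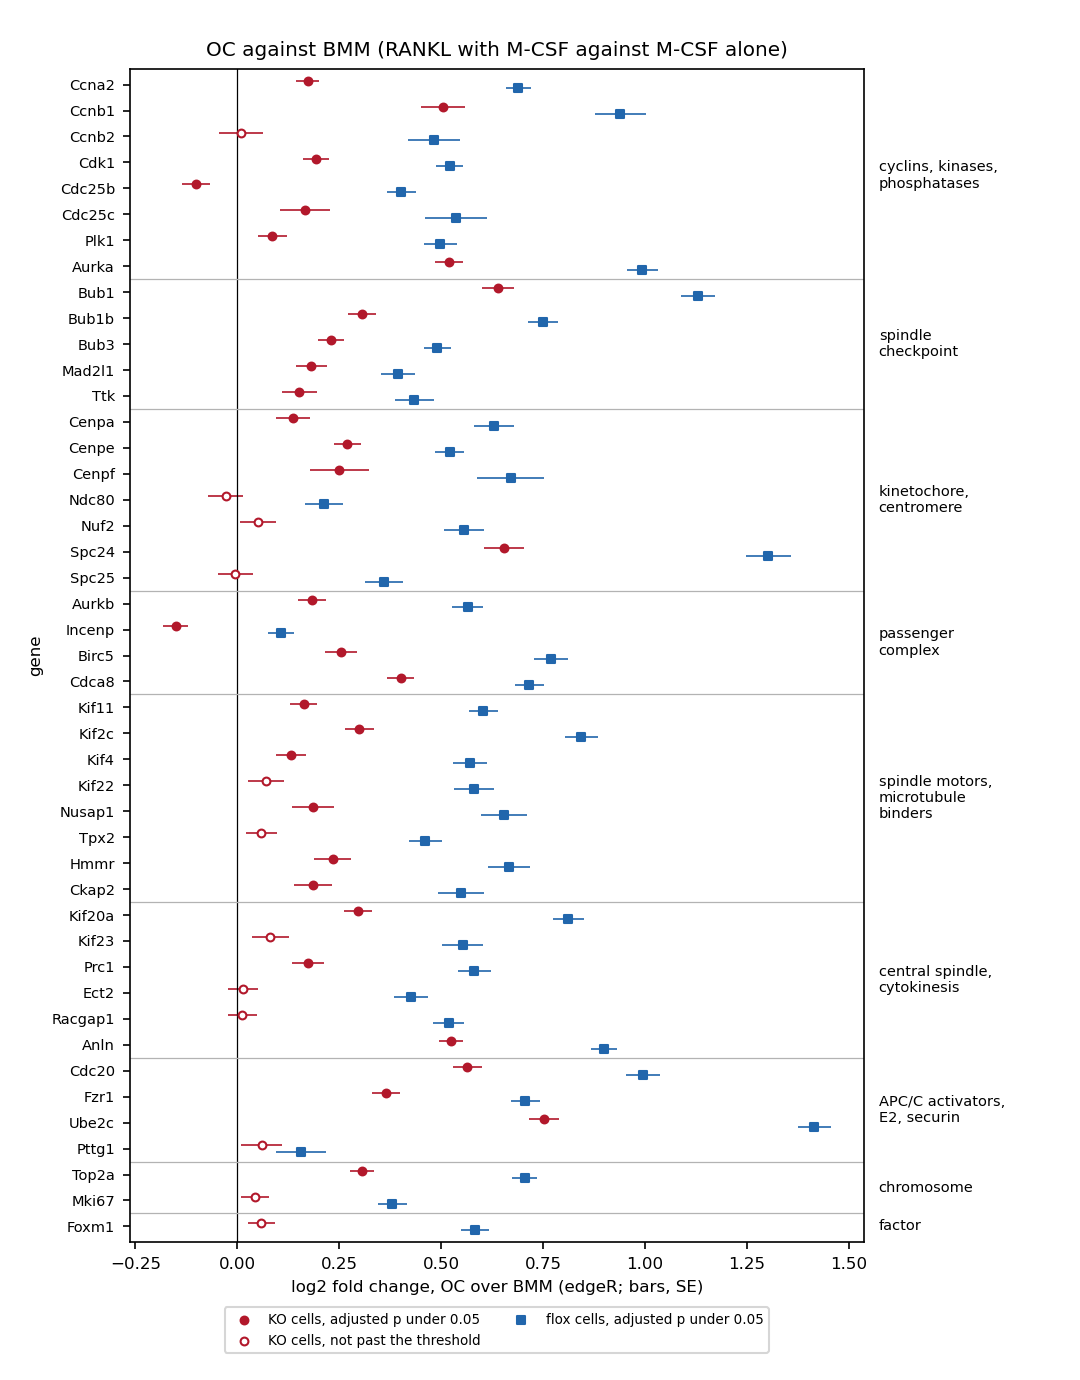
Log2 fold change of OC over BMM (x axis, edgeR; bars, SE) for the 45 genes by role, in KO cells (red circles; open where not past the threshold) and in flox cells (blue squares). Every flox point lies to the right of the KO point of the same gene. The KO points of Cdc25b, Ndc80, Spc25 and Incenp lie below 0, with those of Ndc80 and Spc25 not called. With library size alone the values of Cdc25b (0.03), Ndc80 (0.11) and Spc25 (0.13) were above 0.

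The RANKL effect was smaller in KO than in flox cells for 44 of 45 genes by the test of the difference itself, and for the 45 the median difference was -0.43 on the log2 scale, with a range of -0.66 to -0.10. Of all 13030 genes 9.53% were called lower in this test and 12.3% higher. Algebraically the same number says by how much the KO over flox difference was smaller in OC than in BMM. Ube2c had the largest difference (log2 difference -0.66 with an SE of 0.054 and an adjusted p of 3.29e-13 by edgeR), followed by Spc24 (log2 difference -0.65 with an SE of 0.075 and an adjusted p of 2.22e-09 by edgeR). Foxm1 had -0.52, Aurka -0.47 and Plk1 -0.41. Pttg1 did not pass (log2 difference -0.10, SE 0.079, edgeR adjusted p = 0.433). The call of Cenpf (-0.42) was lost without KO_OC library 2, flox_OC library 2 or 3, or KO_BMM library 3 (adjusted p = 0.0503, 0.0513, 0.0514 and 0.0505). By role the median difference ran from -0.45 for the cyclins, kinases and phosphatases to -0.28 for the spindle checkpoint, apart from Foxm1. Across the 45 genes the RANKL effects in KO and in flox cells, which share no library, correlated with Pearson's r = 0.92 and Spearman's rho = 0.85.

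Taking the 4 group means of each gene in order, flox_BMM was lowest for all 45 genes and KO_OC highest for 41. KO_BMM was the highest mean for Cdc25b, Ndc80, Spc25 and Incenp. The groups in the middle of the order differed between genes. All 3 KO_BMM libraries lay above all 3 flox_OC libraries for 32 genes, among them Ccnb2, Plk1, Cenpa, Hmmr, Kif20a, Cdc20, Mki67 and Foxm1. They lay wholly below them for 11, which were Ccnb1, Cdk1, Aurka, Bub1, Bub3, Spc24, Cdca8, Anln, Fzr1, Ube2c and Top2a. For Bub1b and Birc5 the neighbouring KO_BMM and flox_OC libraries overlapped. Mki67 had 984, 1111 and 1059.8 CPM in KO_BMM and 809, 804 and 795 CPM in flox_OC, while Ube2c had 113, 105 and 116 and 156, 148 and 156 CPM in the same groups. These 2 groups differ in both genotype and RANKL, and their order is a description with no test.

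The lists of other mitosis genes held more members that rose than fell in KO against flox cells, and in BMM the share was smallest for the anaphase promoting complex. Over all genes 19.3% were called higher and 20.6% lower in BMM, and 21.4% higher and 19.9% lower in OC. In BMM 22 of 22 other spindle and cytokinesis genes rose (median log2 fold change 0.73), led among named genes by Aspm, a spindle pole protein, with 1.10, Depdc1a with 1.04 and Sapcd2 with 0.95. In OC 21 of the 22 rose (median 0.35). Of 15 other G2/M kinases and regulators 13 rose in BMM (median 0.64), and in OC 10 rose and 1 fell. Here Cdkn3, a phosphatase of CDKs, had 1.16 in BMM, Cks2, a CDK subunit, 0.85 and Mxd3, a member of the MAX network, 0.85. Of 27 other kinetochore genes 23 rose in BMM (median 0.48) and 13 in OC, with 0.75 for Ska1, 0.66 for Knl1 and 0.65 for Ska3 in BMM. Of 16 condensin and cohesin genes and their regulators 15 rose in BMM (median 0.42) and 12 in OC, with 0.70 for Ncapd2, 0.66 for Sgo1 and 0.60 for Ncapg in BMM. The list of the anaphase promoting complex held 15 genes, its subunits and the inhibitor Fbxo5. Of these 9 rose in BMM (median 0.17), and in OC 8 rose and 1 fell. Fbxo5 had a log2 fold change of 0.45 in BMM, Anapc5 0.31 and Cdc23 0.30. The older symbols Sgol1, Sgol2a, Casc5 and Gsg2 in these lists matched no identifier.

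Genes of G1/S and DNA replication divided differently. Of 48, 14 rose and 10 fell in KO against flox BMM (median 0.027), and 8 rose and 17 fell in OC (median -0.035). Of all genes 19.3% were called higher and 20.6% lower in that BMM comparison, and 21.4% higher and 19.9% lower in OC. With RANKL 35 of the 48 rose and 7 fell in KO cells, and 36 rose and 4 fell in flox cells. Over all genes 35.5% were called higher and 35.0% lower in KO cells, and 37.0% higher and 37.8% lower in flox cells. Ccnd2, cyclin D2, fell in KO BMM with a log2 fold change of -1.67 (SE 0.15), while Dbf4, the activator of the replication kinase CDC7, rose by 0.56 and Tyms, thymidylate synthase, by 0.41. The MuvB, DREAM and B-Myb list had 5 of 12 higher and 0 lower in BMM (median 0.11), and 3 higher and 2 lower in OC. The counts and medians of these lists describe them with no test of one list against another.

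**Figure D5:**
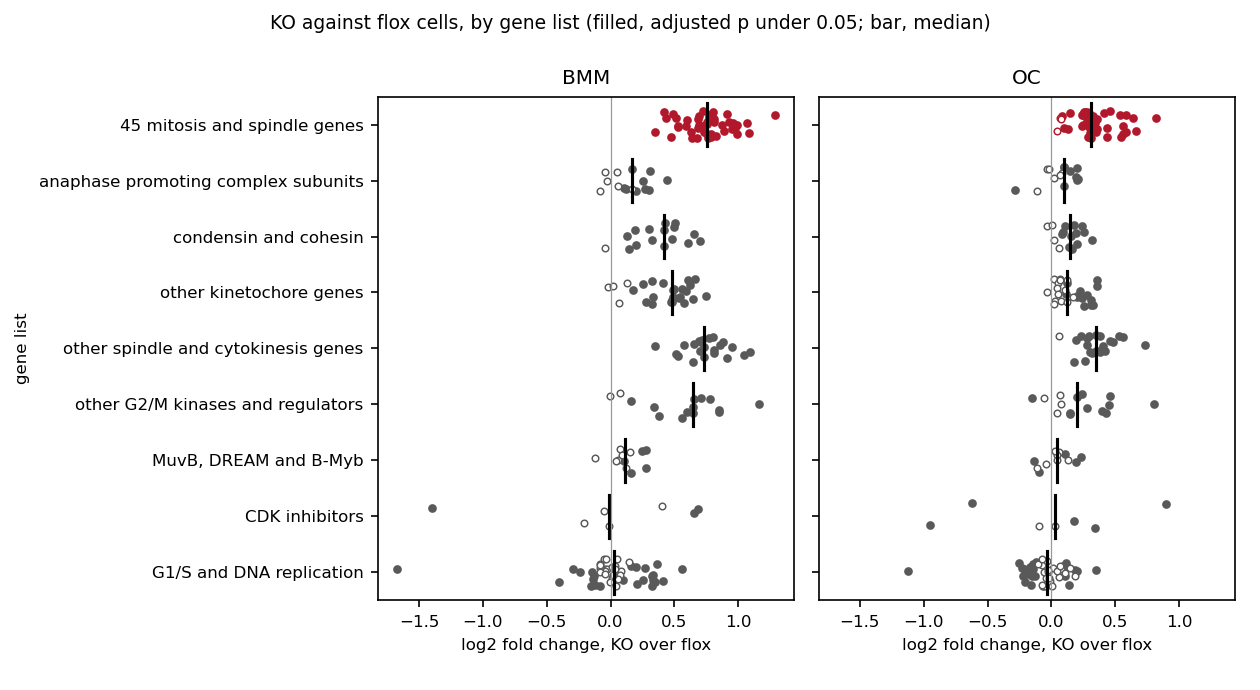
Log2 fold change of KO over flox (x axis) for each tested gene of the 45 and of 8 related lists (rows), in BMM (left) and OC (right); filled points passed the adjusted p of 0.05 and the bar is the list's median. The 45 genes have a median of 0.76 in BMM and 0.31 in OC, while G1/S and replication genes lie around 0.

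Markers of other cells also differed between the genotypes in BMM, and their part in these results was not tested. Of all genes 20.6% were called lower in KO against flox BMM. The 14 stromal and osteoblast markers summed to 58.4 to 65.6 CPM in KO_BMM, against 186 to 203 CPM in flox_BMM. All 9 of 9 tested fell, with Bglap at 0 in every library. The 11 granulocyte precursor markers summed to 26.1 to 28.7 CPM in KO_BMM, against 78.9 to 83.2 CPM in flox_BMM, 4 of 5 tested fell, and Ly6g was at 0. The 5 megakaryocyte markers summed to 48.0 to 52.1 CPM in KO_BMM, against 343 to 408 CPM in flox_BMM, and both tested ones fell. The 8 T and NK cell markers summed to 57.3 to 61.9 CPM in KO_BMM, against 97.4 to 99.8 CPM in flox_BMM, with Ncr1 at 0, and the 8 B cell markers to 1.16 to 1.41 CPM, against 1.64 to 2.58 CPM, with Igll1 at 0. These lists moved opposite to the mitosis genes. In some of them a single marker made up most of the sum. The highest value of a single marker in a flox_BMM library was 406 CPM for the megakaryocyte list, of Pf4. For the T and NK cell list it was 94.8 CPM, where only Il7r and Cd4 were tested. For the granulocyte list it was 74.1 CPM, of Mmp8. In bulk RNA these values do not show which cells held the transcripts, so they do not show that such cells were present. In OC the stromal list summed to 47.5 to 58.0 CPM in KO_OC, against 156 to 160.4 CPM in flox_OC, and the megakaryocyte list to 15.2 to 16.2 CPM in KO_OC, against 134 to 140.5 CPM in flox_OC. The 6 stem and progenitor markers summed to 8.80 to 9.39 CPM in KO_BMM, against 8.45 to 10.7 CPM in flox_BMM. Of these 0 of 3 tested were called, where 39.9% of all genes were called in either direction. Kit and Flt3, which define multipotent progenitors, did not reach the filter.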

How the data were processed

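The authors deposited raw, whole-number counts per gene for each library, with no normalization. STAR 2.0.4b was the aligner and GRCm38 the build, per the submitters' processing notes. Per the file headers, featureCounts assigned reads to exons of the Ensembl release 76 annotation without regard to strand, and oligo-dT selection of RNA is in the labels' protocols. The treatment of reads that align to several places was not stated, so genes with near-identical copies are uncertain. Exons of 4 of the 45 genes overlap another gene by more than 10% of their bases. Symbols came from GENCODE M21 names (40254 of 41388 identifiers).

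The test was edgeR's quasi-likelihood test of edgeR 4.0.16 in R 4.3.3. One fit of 4 group means to the 12 libraries used TMM scaling, filterByExpr and robust dispersions, and p was adjusted by Benjamini-Hochberg over 13030 genes with a threshold of 0.05. The SE is the size of the log2 fold change over the root of the F statistic. The fit was tested on simulated data. No 2 libraries were duplicates (chi-square per degree of freedom 1.23 to 5.05). Values by library are given for up to 3 genes of each role with the largest change in KO against flox BMM, the gene with the highest mean CPM and genes called opposite to most. In each other list up to 3 called genes with the largest change and at least 1 CPM are named. The members and lists were chosen with earlier results of these data known. Relative to library totals without TMM scaling, 3 counts correspond to 0.138 to 0.162 CPM. Alternatives were library size alone, DESeq2 size factors, DESeq2 (1.42.0), 2 other filters, fits of only the groups compared, a replicate block and leaving out each library; those for pathway lists and genes were chosen after seeing the data.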

Additional observations from a re-analysis of the deposited data

Results flagged for a closer look

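The KO over flox difference was smaller in OC than in BMM for 44 of the 45 mitosis and spindle genes by edgeR's test of the difference itself (adjusted p under 0.05). It equals the RANKL effect in KO minus that in flox cells, and 9.53% of all genes were called lower in it. On the log2 scale the differences among cyclins, kinases and phosphatases were -0.52 for Ccna2, -0.43 for Ccnb1, -0.47 for Ccnb2, -0.33 for Cdk1, -0.50 for Cdc25b, -0.37 for Cdc25c, -0.41 for Plk1 and -0.47 for Aurka. For the spindle checkpoint they were -0.49 for Bub1, -0.44 for Bub1b, -0.26 for Bub3, -0.21 for Mad2l1 and -0.28 for Ttk, and for the kinetochore -0.49 for Cenpa, -0.25 for Cenpe, -0.42 for Cenpf, -0.24 for Ndc80, -0.51 for Nuf2, -0.65 for Spc24 and -0.36 for Spc25. For the chromosomal passenger complex they were -0.38 for Aurkb, -0.26 for Incenp, -0.51 for Birc5 and -0.32 for Cdca8. Spindle motors and binders had -0.44 for Kif11, -0.54 for Kif2c, -0.44 for Kif4, -0.51 for Kif22, -0.47 for Nusap1, -0.40 for Tpx2, -0.43 for Hmmr and -0.36 for Ckap2. Central spindle and cytokinesis genes had -0.51 for Kif20a, -0.47 for Kif23, -0.41 for Prc1, -0.41 for Ect2, -0.51 for Racgap1 and -0.37 for Anln. Among activators and the E2 of the anaphase promoting complex the values were -0.43 for Cdc20, -0.34 for Fzr1 and -0.66 for Ube2c. Chromosome genes had -0.40 for Top2a and -0.34 for Mki67, and Foxm1 had -0.52.

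Over the other lists the same test called 20 of 22 lower and 0 higher of the other spindle and cytokinesis genes, 10 of 15 lower and 0 higher of the other G2/M kinases and regulators, 16 of 27 lower and 0 higher of the other kinetochore genes, 12 of 16 lower and 1 higher of the condensin and cohesin genes, 4 of 15 lower and 1 higher of the anaphase promoting complex list, 4 of 12 lower and 1 higher of the MuvB list, 3 of 7 lower and 0 higher of the CDK inhibitors and 15 of 48 lower and 1 higher of the G1/S and replication genes, against 9.53% lower and 12.3% higher over all genes. The genes named in these lists were picked for a large difference in BMM, which enters this test with a minus sign, so their values are a description only. Mitosis genes among them that passed the test had -0.46 for Fbxo5, -0.11 for Anapc5, -0.21 for Cdc23, -0.45 for Ncapd2, -0.50 for Sgo1, -0.36 for Ncapg, -0.64 for Ska1, -0.30 for Knl1, -0.39 for Ska3, -0.37 for Aspm, -0.53 for Sapcd2, -0.36 for Cdkn3 and -0.40 for Mxd3. The others had -0.17 for Lin54, -0.51 for Cdkn2d, -0.32 for Cdkn2c, -0.38 for Dbf4 and -0.37 for Tyms. Leaving out 1 library ended the call of Anapc5 in 10 of 12 fits, of Mxd3 in 6, of Lin54 in 5 and of Cdkn3 in 3, with adjusted p of up to 0.0959 for Anapc5, 0.111 for Mxd3, 0.0950 for Lin54 and 0.0926 for Cdkn3. Anapc5 also lost its call with the replicate block (0.0549) and with no low-count filter (0.0727), and DESeq2 ended those of Mxd3 (0.0872), Lin54 (0.0698) and Cdkn3 (0.0512). Groups of 3 libraries were not searched for outlying samples.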

How the results depend on the processing

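The count of the 45 genes called moved by less than 1.5 times under every alternative. In KO against flox BMM it was 45 under each. In KO against flox OC it was 40 to 43, in OC against BMM of KO cells 31 to 43, in OC against BMM of flox cells 44 to 45, and in the difference of the RANKL effects 43 to 44. DESeq2 gave 29 higher and 2 lower in KO cells, and a fit of only the groups compared 35 higher and 2 lower. Leaving out 1 library at a time gave 4515 to 5190 called genes of all 13030 for KO against flox in BMM, 4704 to 5749 in OC, 8745 to 9368 and 9378 to 9810 for RANKL in KO and flox cells and 2447 to 3289 for the difference. The members' median then lay between 0.70 and 0.82 in BMM and between 0.30 and 0.32 in OC. The MuvB list had 8 called genes in BMM with library size alone, against 5 with TMM, and the CDK inhibitors 3 to 5 when 1 library was left out (5 without flox_BMM library 3).

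The sign turned for 14 values, all in OC against BMM of KO cells. With library size alone they were 0.034 for Cdc25b, 0.11 for Ndc80 and 0.13 for Spc25. With no low-count filter they were -0.0056 for Ccnb2, -0.0015 for Ect2 and -0.0032 for Racgap1. Leaving out 1 library at a time gave -0.0099 to 0.027 for Ccnb2, -0.039 to 0.014 for Spc25, -0.014 to 0.034 for Ect2, -0.0083 to 0.019 for Racgap1 and -0.0057 to 0.080 for Mki67. Of these only Cdc25b was called in the fit to all libraries, and the cause of the other turns was not tested.

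The counts showed no pairing of libraries by the replicate numbers of the titles. Same-numbered libraries of different groups correlated in their deviations by -0.042 to 0.052, and 3 of 12 correlated best with their own number. Such correlations cannot exclude a shared animal or day, which the labels leave unknown. With the replicate block 45 and 42 of the 45 genes were called in KO against flox BMM and OC, 33 and 45 in OC against BMM of KO and flox cells and 44 in the difference. With 3 libraries a group, the smallest change called among the 45 genes was 0.086 on the log2 scale (Plk1, OC against BMM in KO cells).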

Other observations

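CDK inhibitors act mostly in G1. Cdkn2c, the INK4 inhibitor p18, had 137, 136 and 138 CPM in KO_BMM, against 79.1, 87.9 and 94.0 CPM in flox_BMM (log2 fold change 0.66, SE 0.039), and its OC log2 fold change was 0.34. Cdkn2d, the INK4 inhibitor p19, had 58.1, 56.7 and 57.8 CPM in KO_BMM, against 33.2, 36.4 and 37.4 CPM in flox_BMM (0.69, SE 0.047). Cdkn2b, the inhibitor p15, fell, with 1.30, 1.64 and 1.70 CPM in KO_BMM, against 4.59, 5.15 and 2.52 CPM in flox_BMM (log2 fold change -1.40, SE 0.20). Of the 7 inhibitors tested, 2 rose, 1 fell and 4 were not called in BMM, where 19.3% of all genes were called higher and 20.6% lower. In OC 3 rose and 2 fell, against 21.4% and 19.9% of all genes. Of the MuvB list, E2f5 had a log2 fold change of 0.27 in BMM, Lin54 of 0.27 and Rbl2, the pocket protein p130, of 0.25.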
